A study of Drosophila melanogaster with 18 samples.

Results

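Transcripts of 53 enzymes of detoxification were followed in heads of the fruit fly Drosophila melanogaster before and after exposure to ethanol vapor. They were the glutathione transferases of the delta (GstD), omega (GstO), sigma (GstS), theta (GstT) and zeta (GstZ) classes, 20 genes, and the UDP-glycosyltransferases (Ugt), 33 genes. The members were taken by gene symbol alone from the array's annotation, out of 10845 genes that have a probe set with a single symbol. The insect-specific epsilon class (GstE) was left out. Where a gene had several probe sets, the one with the highest mean over all arrays was used, and 57 member probe sets gave the 53 genes.

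All flies were of the wild-type strain Canton-S and 2 to 5 days old, and each of the 18 samples was made from about 60 whole heads. Naive flies, the controls, were given humidified air for 50 min. The single-exposure group (labelled Fast) had the same air period and then 1 exposure of 40 min to 50% ethanol vapor, and the five-exposure group (labelled Chronic) had 5 such exposures after the air. Each group had 6 biological replicates, 1 array each, and the series concerns tolerance to ethanol that builds up quickly or over repeated exposures. Neither the sex of the flies nor the spacing of the exposures was stated in the labels. Controls kept in air for as long as the exposures lasted were not analysed here.

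Glutathione transferases join the tripeptide glutathione to reactive, electrophilic compounds, among them insecticides and products of lipid peroxidation, so that these can be carried out of the cell. UDP-glycosyltransferases sit in the membrane of the endoplasmic reticulum and attach a sugar from a UDP-sugar donor to small lipophilic molecules, which makes them soluble. In insects both families are inducible by foreign compounds, in part through the transcription factor cnc (the fly Nrf2) and its inhibitor Keap1, and some UDP-glycosyltransferases act in the antenna, where odorants are cleared.

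Values were intensities on a linear scale, with array medians from 125.4 to 129.3 and maxima from 10996 to 12033. Of the 53 genes, 30 passed the filter on dim probe sets (a mean over all 18 arrays above an intensity of about 85.8) and were tested with limma, a linear model fitted to 9317 probe sets at once. A gene was called at a Benjamini-Hochberg adjusted p under 0.05 over all of them. The 30 were 17 of the 20 glutathione transferases and 13 of the 33 UDP-glycosyltransferases. The labelled tissue was checked against marker genes: the photoreceptor genes trp, Arr1 and Arr2 had naive means of 2158, 4900 and 6720 and the neuronal genes nSyb and brp of 717 and 294, while elav (76.0) was below the filter. The glial genes Gs2, alrm and repo had naive means of 4067, 237 and 197, with nrv2 below the filter. Of 4 antennal genes measured, Obp19d had a naive mean of 2460, and lush (at the floor on all arrays), Obp83b and Orco were below the filter. The midgut genes betaTry, alphaTry, Mal-A1, Jon65Aiii and Jon99Ci had naive means of 451, 391, 224, 198 and 93.5. The Malpighian tubule genes Vha55, Irk3 and ZnT35C had 886, 198 and 90.9, with CG3014 below the filter. The testis genes Mst84Da and Mst87F had 383 and 123, with dj and ocn at the floor on all arrays. The check thus did not set heads apart from these tissues. Control probe sets at the 3' and the 5' end of a transcript were compared as a log2 ratio of 3' over 5'. For 18S rRNA, which is not an mRNA, it lay from -3.42 to -2.39 in naive arrays. It lay from -2.35 to -1.68 in single-exposure and from -3.29 to -1.57 in five-exposure arrays. For the mRNA controls, a sign of RNA quality, the ranges of the groups overlapped. Their medians in naive, single-exposure and five-exposure arrays were 2.02, 2.22 and 2.23 for actin, 1.35, 1.27 and 1.30 for GAPDH and 0.54, 0.54 and 0.47 for eIF-4a. The part of these ratios in the results that follow was not tested. Heads are a mixed tissue, and fewer cells of a type cannot be told apart from less RNA per cell.

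Of the 30 tested genes, 10 changed in at least 1 of the 3 comparisons, 7 glutathione transferases and 3 UDP-glycosyltransferases, where 12.6% of all tested probe sets were called in at least 1. After 1 exposure GstD1, GstD2, GstD9, GstT3 and Ugt37A3 rose and GstT4 fell. After 5 exposures no tested gene was called above naive, and GstD3, GstS1, GstT4 and Ugt49B1 fell below it. The largest rise after 1 exposure was that of Ugt37A3, at 2.19-fold, followed by GstD1 at 1.51-fold. The comparisons of 1 and of 5 exposures with naive share the naive arrays and are given side by side.

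**Figure D1:**
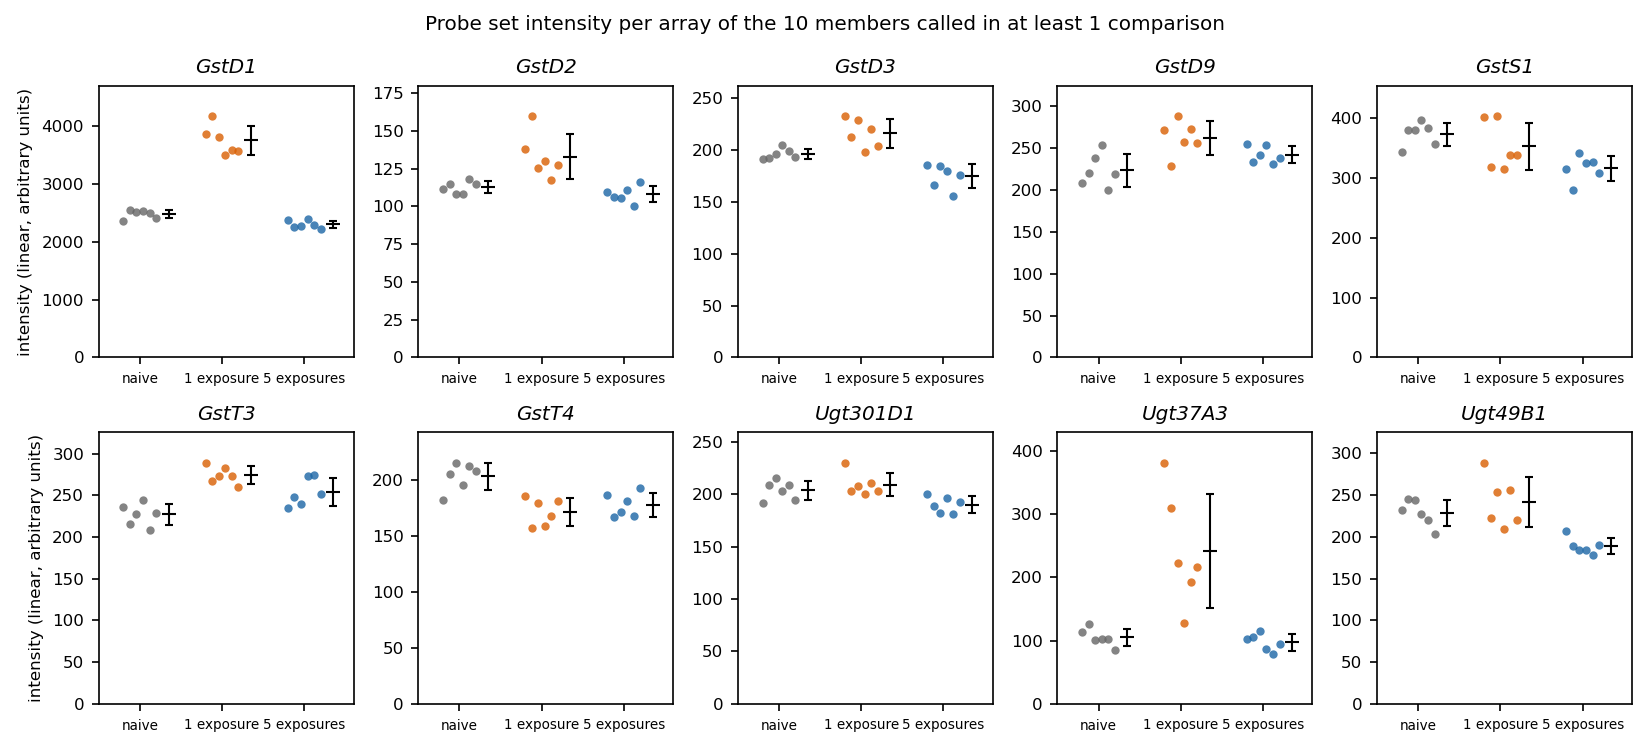
Probe set intensity (linear scale, arbitrary units) of the 10 genes called in at least 1 comparison, with 1 point per array and the mean ± SD of 6 arrays in black. GstD1, GstT3 and Ugt37A3 lie higher on all 6 single-exposure arrays than on any naive array, and GstD3 and GstS1 lie lower on all 6 five-exposure arrays.

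The first comparison asks which of these genes differed from naive heads after 1 exposure. The linear model called 6 of the 30 genes, against 4.42% of all tested probe sets. Of the 30, 5 were higher, or 16.7%, where 2.57% of all tested probe sets were called higher, and 1 lower (3.33%, against 1.86% of all). The groups did not overlap for 3 of the 30, all higher, against 1.89% of all probe sets higher without overlap and 1.12% lower. The median log2 fold change of the 30 genes was 0.04 and that of all probe sets 0.01; 18 of the 30 had a fold above 1, against 57.1% of all probe sets.

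GstD1 is the best studied delta enzyme, can break down DDT, and serves as a reporter of cnc activity. Its intensity had a lowest, median and highest value of 2363, 2507 and 2546 in naive arrays and of 3498, 3707 and 4173 after 1 exposure. All 6 exposed arrays were above all naive arrays. The fold was 1.51 (95% interval 1.42 to 1.60, limma adjusted p = 2.77e-09), from 2480 ± 73.3 to 3752 ± 251 (SD, n = 6 each). After 5 exposures the values were 2228, 2279 and 2386, which overlapped with the naive ones at a fold of 0.928 (0.874 to 0.986, limma adjusted p = 0.156).

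The genes that flank GstD1 on the chromosome moved the same way by less. GstD2 had naive values of 108.2, 113.3 and 118.4 and single-exposure values of 117.2, 128.6 and 159.7, so that the groups overlapped by a small margin. It rose 1.17-fold (1.08 to 1.27, limma adjusted p = 0.0191). GstD9 had values of 200.2, 219.7 and 253.2 in naive heads and 228.4, 264.7 and 288.1 after 1 exposure, with clear overlap. It rose 1.18-fold (1.08 to 1.28, limma adjusted p = 0.0190), a call that was lost without naive replicate 1 (0.0561), without single-exposure replicate 3 (0.0523) and with only the 2 groups compared (0.0539).

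In the RefSeq gene table of the Release 6 assembly, the 11 delta genes form 1 run in the order GstD10, GstD9, GstD1, GstD2, GstD3, GstD4, GstD5, GstD6, GstD7, GstD8 and GstD11, with 1 other gene before GstD11. The 3 delta genes that rose are the neighbours GstD9, GstD1 and GstD2. The next 2 in the run had folds of 1.10 for GstD3 (1.03 to 1.18, adjusted p = 0.129) and 1.11 for GstD4 (1.01 to 1.23, adjusted p = 0.272), not called. From GstD6 to GstD11 and at GstD10, at the other end, folds lay between 0.964 and 1.05. GstD5 was below the filter, with naive arrays at 67.3 ± 3.9, single-exposure arrays at 77.6 ± 7.1 and five-exposure arrays at 69.4 ± 3.4. Delta genes are close relatives, and how far the probe set of one also reads its neighbours was not tested.

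**Figure D2:**
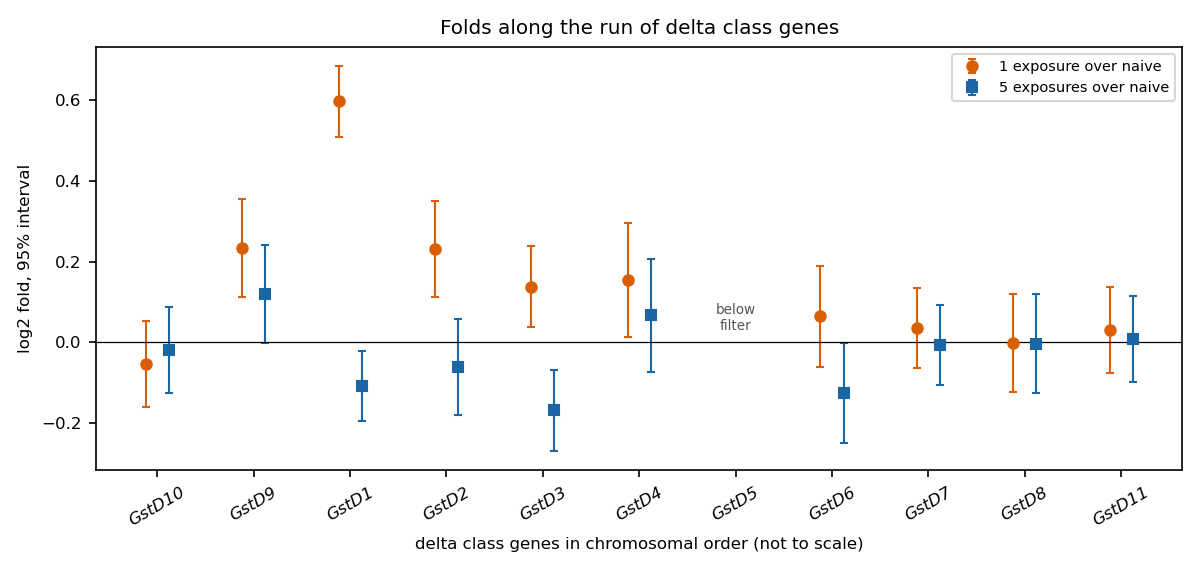
Log2 folds with 95% intervals (vertical axis) of the delta class genes in chromosomal order, not to scale, for 1 exposure over naive (circles) and 5 exposures over naive (squares). The single-exposure folds are highest at GstD1 (log2 0.60) and lower at its neighbours GstD9 and GstD2 (0.23 each), and the five-exposure fold is lowest at GstD3 (-0.17).

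Theta class enzymes resemble an ancient form of the family found from bacteria to mammals. The 3 measured theta genes did not move as one. GstT3 had values of 209.0, 228.2 and 244.9 in naive arrays, 259.5, 272.9 and 289.1 after 1 exposure and 235.1, 249.7 and 274.3 after 5. Its single-exposure arrays were all above the naive ones, at 1.21-fold (1.13 to 1.29, limma adjusted p = 0.000869). GstT4 had values of 182.4, 206.7 and 214.9 in naive heads and 156.9, 173.7 and 186.1 after 1 exposure, and fell to 0.845-fold (0.782 to 0.913, limma adjusted p = 0.00760). GstT2 was at 0.984-fold (adjusted p = 0.896).

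After 1 exposure Ugt37A3 had the largest fold of the 30 tested members and the widest interval on the fold scale. Naive arrays had a lowest, median and highest intensity of 84.4, 102.7 and 126.0, and single-exposure arrays of 127.3, 219.2 and 381.0. The groups did not overlap, but single-exposure replicate 4, the lowest, was just above the highest naive array, and replicates 1 and 2, at 381.0 and 310.0, stood above the other four. The fold was 2.19 (1.69 to 2.82, limma adjusted p = 0.000259), the 9th highest among 9317 probe sets. With a pseudocount of 32 in place of the floor its log2 fold was 0.94 against 1.13, still called. The chromosomal neighbour Ugt37A2 lay under the floor of 57.8 on all 18 arrays and gave no fold for comparison. Its means before the floor were 31.4 in naive, 33.8 in single-exposure and 31.1 in five-exposure arrays.

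Omega class enzymes reduce dehydroascorbate and mixed disulfides, and the zeta enzyme is maleylacetoacetate isomerase of tyrosine breakdown. Of the genes named GstO or GstZ, GstO2, GstO3 and GstZ1 were tested and none was called in any comparison by limma (1 at an unadjusted p under 0.05, GstZ1 between 5 exposures and 1). The omega class gene se, which has another kind of symbol, is described with the related genes. GstO3 was at 1.06-fold (0.994 to 1.13) after 1 exposure and 1.01-fold (0.949 to 1.08) after 5. GstO2 was at 0.971-fold and 0.959-fold on the chosen probe set, with folds of the opposite direction on a dimmer probe set and no call on either. GstZ1 was at 0.939-fold after 1 exposure (0.877 to 1.01) and 1.02-fold after 5 (0.952 to 1.09). Its neighbour GstZ2 was just below the filter, at 89.9 ± 8.2 in naive, 71.5 ± 3.2 in single-exposure and 82.0 ± 5.5 in five-exposure arrays, and without the filter it was called at 0.797-fold after 1 exposure (limma adjusted p = 0.00414).

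The second comparison asks which genes differed from naive heads after 5 exposures. The linear model called 4 of the 30 genes, all lower, or 13.3%, against 6.33% of all probe sets in either direction, and 3.85% lower. None was called higher in limma (1 at an unadjusted p under 0.05, GstT3), where 2.48% of all were. Groups did not overlap for 2 genes, both lower, against 2.09% of all probe sets lower and 1.57% higher. The count of 4 rested on genes near the threshold: it was 1 without a filter on dim probe sets and 1 without five-exposure replicate 2. It was 2 without naive replicate 2, 3, 5 or 6 or five-exposure replicate 4 or 5. Ugt49B1 was called under every alternative run.

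Ugt49B1 had naive values of 203.7, 229.8 and 244.9 and five-exposure values of 178.5, 186.4 and 207.4, with a small overlap. It fell to 0.826-fold (0.750 to 0.909, limma adjusted p = 0.0123), from 228.8 ± 15.5 to 188.8 ± 9.998 (n = 6 each). After 1 exposure it ranged from 209.4 to 288.6 around a median of 237.5, at 1.05-fold (0.955 to 1.16, adjusted p = 0.698). Its neighbour Ugt49C1 was below the filter, at 75.1 ± 5.2 in naive, 82.5 ± 6.8 in single-exposure and 69.0 ± 3.3 in five-exposure arrays. Without the filter Ugt49C1 was at 0.920-fold of naive after 5 exposures (limma adjusted p = 0.358).

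GstS1, the only sigma class gene of the fly, encodes an enzyme that conjugates 4-hydroxynonenal, a product of lipid peroxidation, and is abundant in indirect flight muscle. It had a lowest, median and highest intensity of 344.3, 379.8 and 396.7 in naive, 315.8, 338.8 and 403.7 in single-exposure and 280.5, 320.2 and 341.5 in five-exposure arrays. All five-exposure arrays were below all naive ones, at 0.846-fold (0.772 to 0.927, limma adjusted p = 0.0218). The call was lost without five-exposure replicate 2 (0.0559) and without a filter on dim probe sets (0.0577). Markers of muscle were lower in the same comparison. Of 5 muscle names, 4 had a probe set, none at the floor, and 3 fell after 5 exposures, the paramyosin gene Prm to 0.560-fold, the troponin T gene up to 0.637-fold and the tropomyosin gene Tm2 to 0.706-fold, while Act88F was at 0.966-fold, not called. The summed intensity of the 4 ranged from 3047 to 4803 in naive, from 3228 to 3954 in single-exposure and from 2184 to 3061 in five-exposure arrays. The part of muscle RNA in the fall of GstS1 was not tested. Fat body, a tissue rich in detoxification enzymes, also had markers that moved, with all 5 measured ones tested and none at the floor. After 1 exposure fit fell to 0.398-fold and Lsp2 rose 1.43-fold, while apolpp was at 0.897-fold, not called. After 5 exposures Lsp2 (1.64-fold) and apolpp (1.15-fold) were higher, and fit was at 1.09-fold, not called. Fbp1 (1.10-fold and 1.09-fold) and Yp1 (1.015-fold and 0.999-fold) were called after neither. The summed intensity of the 5 ranged from 18866 to 21478 in naive, from 19161 to 20511 in single-exposure and from 20371 to 24976 in five-exposure arrays. Yp1 was the largest part of this sum, with a naive mean of 11546 near the array maxima, so the sum says little of the others. The part of fat body RNA in the changes of the members was not tested. Among the markers of the other tissues, the photoreceptor gene Arr1 (1.12-fold) and the testis gene Mst84Da (0.869-fold) were called after 5 exposures.

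**Figure D3:**
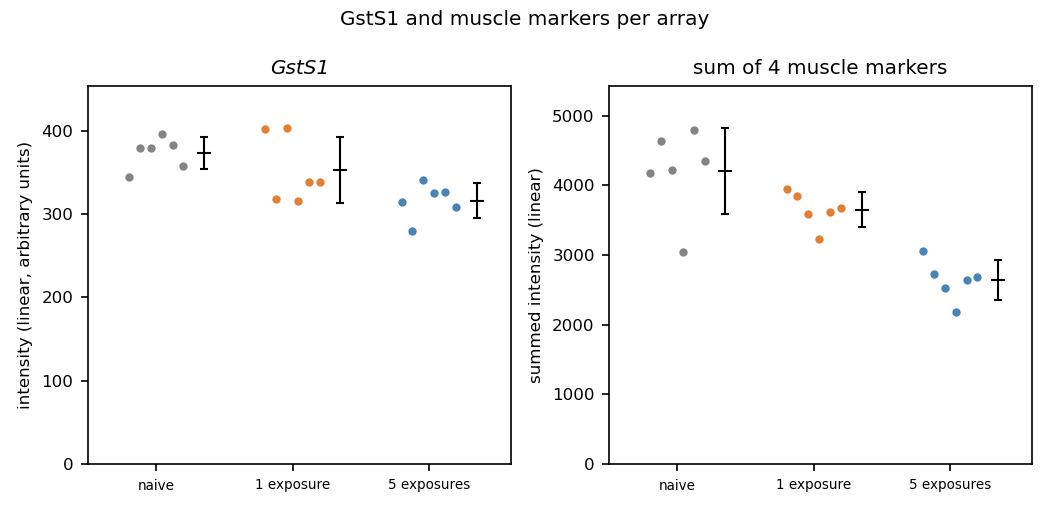
Intensity of GstS1 (left) and summed intensity of the 4 measured muscle markers Prm, up, Tm2 and Act88F (right), linear scale from 0, with 1 point per array and the mean ± SD of 6 arrays in black. Both are lowest in the five-exposure group, where GstS1 ranges from 280.5 to 341.5 and the sum from 2184 to 3061.

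GstD3 had naive values of 191.7, 194.5 and 204.9 and five-exposure values of 156.0, 178.2 and 185.5, which did not overlap. It fell to 0.890-fold (0.831 to 0.954, limma adjusted p = 0.0385), a call lost without a filter on dim probe sets (0.0578) and without any 1 of 10 arrays, all 6 naive arrays and five-exposure replicates 2, 4, 5 and 6 (adjusted p up to 0.0952). GstT4 was lower after 5 exposures too, at 166.9, 176.5 and 192.9 and 0.875-fold of naive (0.810 to 0.945, limma adjusted p = 0.0327), a call lost without the filter (0.0634) and without any 1 of 8 arrays, naive replicates 2, 3, 5 and 6 and five-exposure replicates 2 to 5 (up to 0.0799). GstT3 was at 1.116-fold of naive (1.04 to 1.196, adjusted p = 0.0504), just short of the threshold. GstD9 was at 1.09-fold (0.9996 to 1.18, adjusted p = 0.290).

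**Figure D4:**
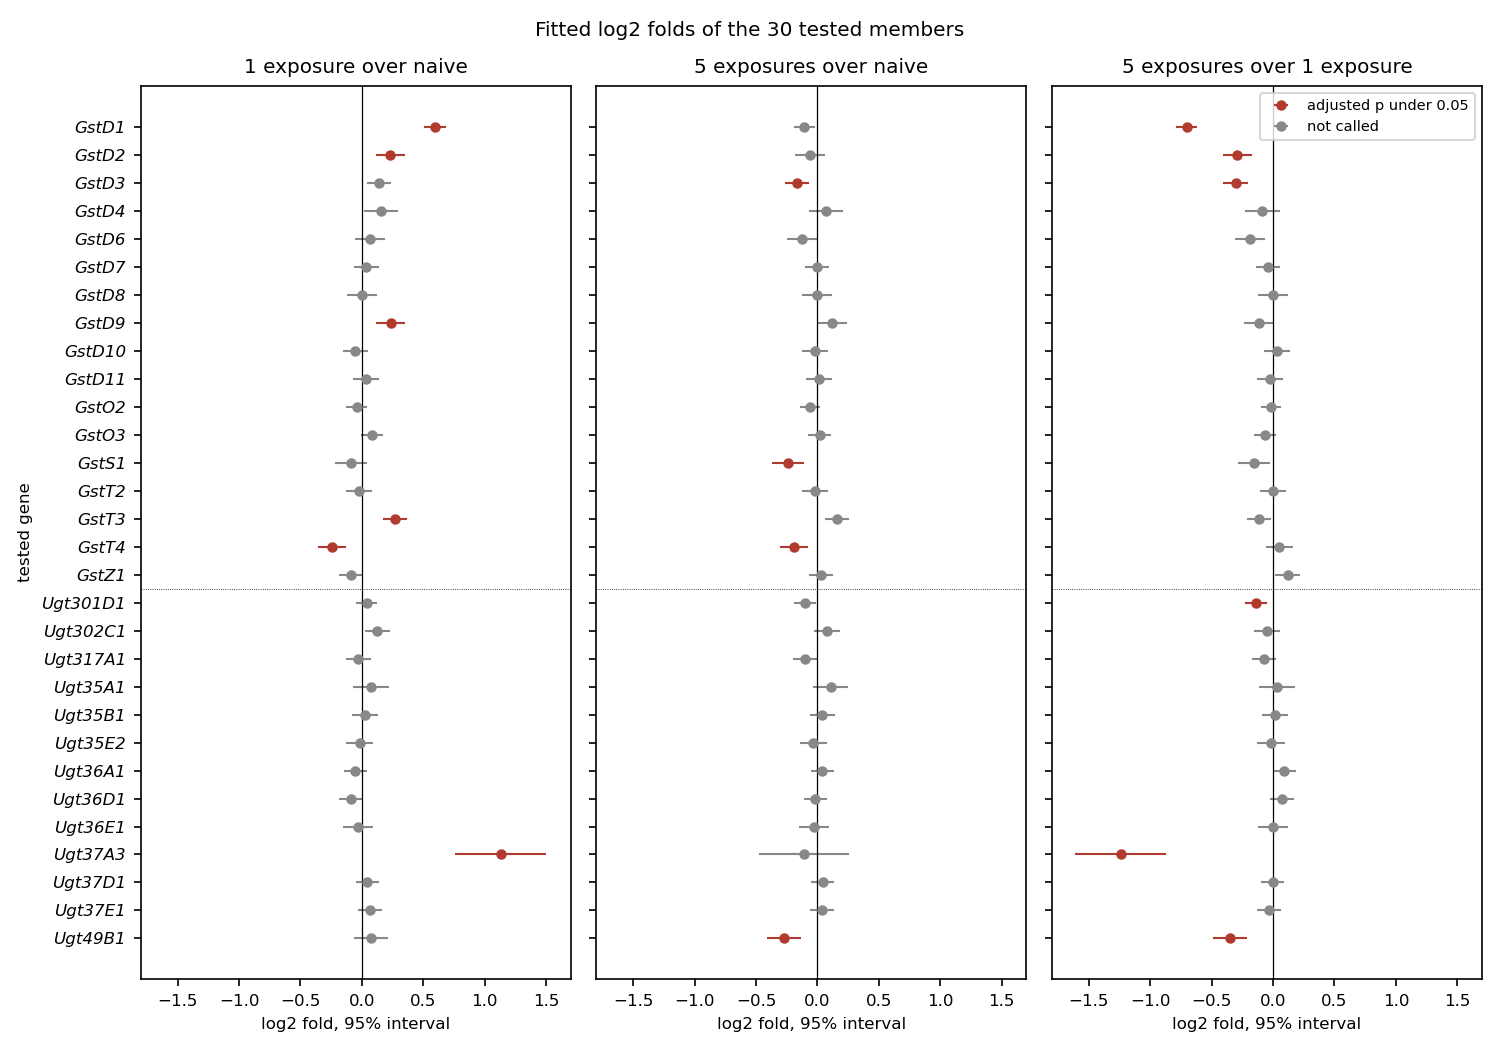
Fitted log2 folds with 95% intervals (horizontal axes) of the 30 tested genes in the 3 comparisons, red where the adjusted p is under 0.05, with glutathione transferases above the dotted line and UDP-glycosyltransferases below it. Ugt37A3 and GstD1 stand out after 1 exposure and lie near 0 in the middle panel, and most UDP-glycosyltransferases lie near 0 in all 3 panels.

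The third comparison sets 5 exposures directly against 1 and tests whether their folds over naive differ. The linear model called 6 of the 30 genes, all lower after 5 exposures than after 1, or 20%, against 8.5% of all probe sets in either direction and 4.77% lower. None was called higher in limma (1 at an unadjusted p under 0.05, GstZ1), against 3.74% of all. The groups did not overlap for 5 genes, all lower, against 3.01% of all probe sets. These were GstD1 (0.614-fold, 0.578 to 0.652, limma adjusted p = 2.19e-10), GstD2 (0.817-fold, adjusted p = 0.00167), GstD3 (0.810-fold, adjusted p = 0.000168), Ugt37A3 (0.424-fold, 0.328 to 0.547, adjusted p = 5.66e-05) and Ugt49B1 (0.785-fold, adjusted p = 0.00129). Each of the 5 was called under every alternative run.

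For Ugt37A3, the five-exposure arrays had a lowest, median and highest intensity of 78.8, 98.6 and 115.8, inside the range of the naive arrays apart from the lowest. Against naive the fold was 0.926, with an interval from 0.718 to 1.196 that leaves room for a moderate change either way. GstD9, GstT3 and GstT4 changed after 1 exposure and were not called between 5 exposures and 1, at 0.924-fold (0.850 to 1.004), 0.925-fold (0.863 to 0.9905) and 1.04-fold (0.959 to 1.119). Ugt301D1 was at 0.910-fold (0.856 to 0.967, limma adjusted p = 0.0495), from 208.9 ± 11.05 after 1 exposure to 190.0 ± 7.8 after 5. That call was lost under quantile normalization (0.0766), median centring (0.0870), the replicate block (0.0756) and with only the 2 groups compared (0.0704). Leaving out 1 array ended it for 15 of the 18 (highest adjusted p 0.125), and held without naive replicate 5, single-exposure replicate 4 or five-exposure replicate 1. GstD6 was just short of the threshold at 0.878-fold (0.805 to 0.956, adjusted p = 0.0540).

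**Figure D5:**
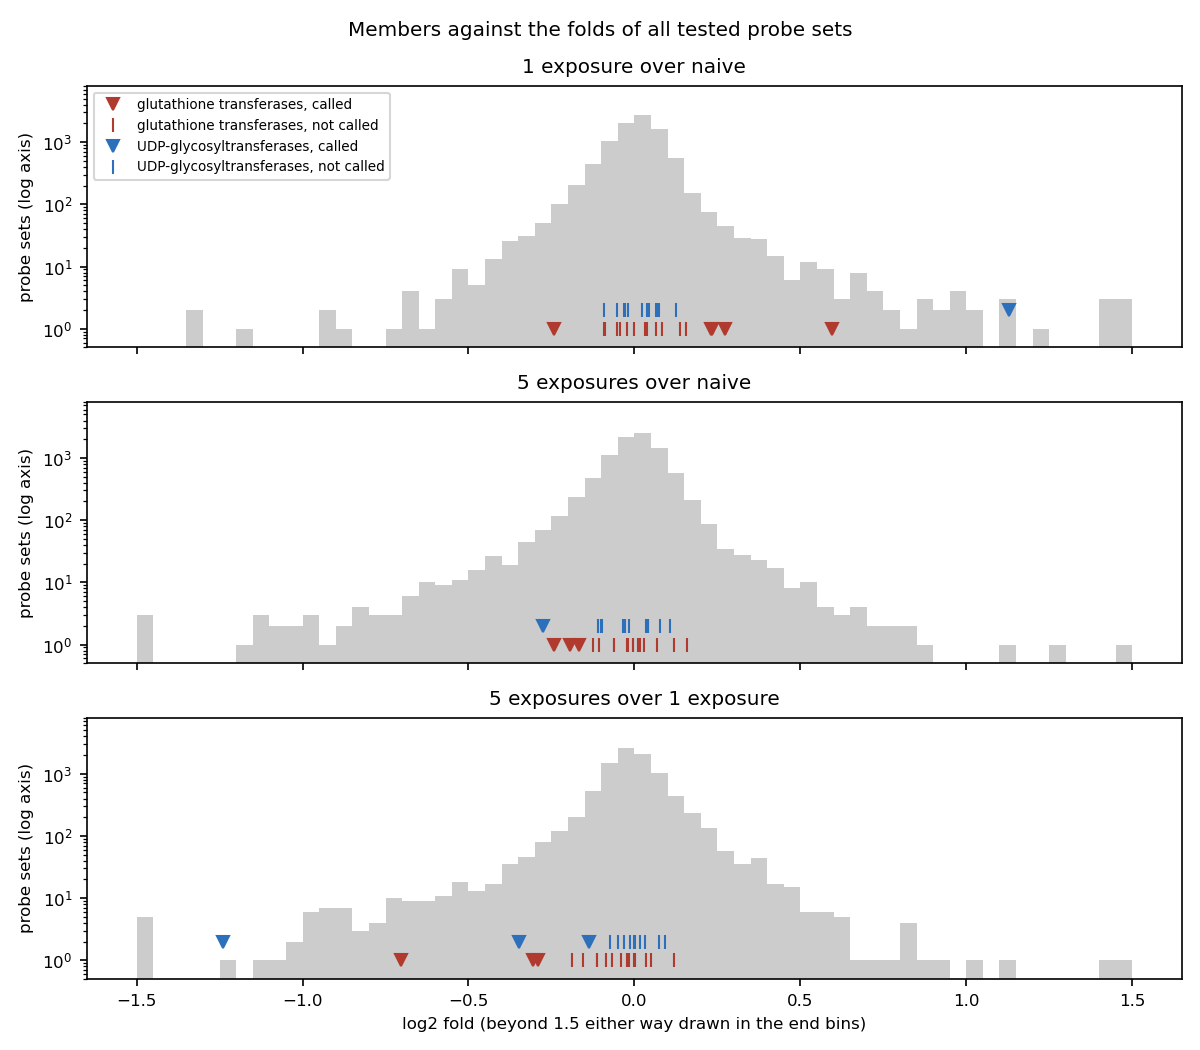
Histograms (grey, log axis) of the log2 folds of all 9317 tested probe sets in the 3 comparisons, with the 17 tested glutathione transferases (red) and 13 UDP-glycosyltransferases (blue) marked at their own folds, triangles where called. Ugt37A3 lies at 1.13 in the upper panel and -1.24 in the lower one, and GstD1 at 0.60 and -0.70, while most other members lie inside the central peak.

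The other 20 tested genes, 10 of each family, were called in none of the 3 comparisons. The UDP-glycosyltransferases among them were Ugt302C1, Ugt317A1, Ugt35A1, Ugt35B1, Ugt35E2, Ugt36A1, Ugt36D1, Ugt36E1, Ugt37D1 and Ugt37E1. Their folds lay between 0.939 and 1.09 after 1 exposure, with interval ends no further out than 0.878 (Ugt36D1) and 1.17 (Ugt302C1). After 5 exposures they lay between 0.932 and 1.08, with interval ends at 0.869 (Ugt317A1) and 1.19 (Ugt35A1). Ugt35B1 and Ugt36E1, which are expressed in antennae, had 190.3 ± 8.3, 193.7 ± 14.0 and 195.8 ± 10.96, and 424.9 ± 30.2, 416.2 ± 34.7 and 416.4 ± 27.2, in naive, single-exposure and five-exposure arrays.

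The glutathione transferases never called were GstD4, GstD6, GstD7, GstD8, GstD10, GstD11, GstO2, GstO3, GstT2 and GstZ1. Their folds lay between 0.939 and 1.11 after 1 exposure (interval ends 0.877 for GstZ1 and 1.23 for GstD4) and between 0.918 and 1.05 after 5 (0.842 for GstD6 and 1.15 for GstD4). Within the delta class the response after 1 exposure ranged from 1.51-fold at GstD1 to folds near 1 at GstD7 (1.03, 0.958 to 1.10) and GstD8 (0.999, 0.918 to 1.09).

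Below the filter were 23 genes, 20 of them UDP-glycosyltransferases. Of these, 12 were at the floor, the pooled 20th percentile of all intensities (57.8), on all 18 arrays: Ugt302E1, Ugt302K1, Ugt303A1, Ugt303B1, Ugt303B3, Ugt304A1, Ugt305A1, Ugt35E1, Ugt37A2, Ugt37B1, Ugt37C2 and Ugt49B2. The other 11 were GstD5, GstO1, GstZ2, Ugt303B2, Ugt307A1, Ugt316A1, Ugt35C1, Ugt36F1, Ugt37A1, Ugt37C1 and Ugt49C1. Ugt35C1, which has been linked to nicotine resistance, was at 74.9 ± 6.2 in naive arrays, 81.1 ± 5.8 after 1 exposure and 80.5 ± 5.5 after 5. GstO1 was at 70.5 ± 6.8, 70.6 ± 8.3 and 80.6 ± 4.1 in the same order. Ugt303B2, Ugt307A1, Ugt36F1 and Ugt37A1 had group means between 63.8 and 81.1, and Ugt316A1, at the floor on 11 arrays, between 53.0 and 59.3. The brightest gene left out was GstZ2 (a mean of 80.6 on the log scale) and the dimmest kept was GstT2 (88.2). Without the filter Ugt37C1 was called after 1 exposure, from 68.3 ± 5.6 to 79.3 ± 5.6 (1.16-fold, limma adjusted p = 0.0495), and was lower after 5 exposures than after 1 (0.849-fold, adjusted p = 0.0189), as was Ugt49C1 (0.838-fold, adjusted p = 0.0116).

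By position, 38 of the 53 genes lay in 9 runs of neighbouring members with at most 1 other protein-coding gene between them. The run of 9 UDP-glycosyltransferases from Ugt302K1 to Ugt303A1 had 4 tested genes, Ugt302C1, Ugt35E2, Ugt35B1 and Ugt35A1, none called. The runs of Ugt36 genes (Ugt36F1, Ugt36D1 and Ugt36E1) and of Ugt37C2, Ugt37E1 and Ugt37D1 had 2 tested genes each and no call. The delta run had 10 tested genes, more than any other, and was the only one with more than 1 called gene. The runs that hold Ugt49B1, GstZ1 and Ugt37A3 had 1 tested gene each and that of the Ugt303B genes none. Without the filter Ugt49B1 and Ugt49C1 were both called lower after 5 exposures than after 1 (limma adjusted p = 0.00714 and 0.0116).

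Genes that supply these enzymes or act beside them were read from 6 lists, of which 61 genes were tested. After 1 exposure 9 were higher and 3 lower, where 2.57% and 1.86% of all probe sets were. After 5 exposures 3 were higher and 5 lower, against 2.48% and 3.85% of all. The lists were chosen with earlier results of these data known, so counts above these shares are description only. In the list of epsilon class and other proteins with a glutathione transferase fold, 5 of 16 rose after 1 exposure and none fell, all 5 of them among the 11 tested epsilon genes. They included GstE3 (2.86-fold), GstE6 (1.46-fold), GstE1 (1.34-fold) and GstE7, whose 5.85-fold depends on the floor because 5 naive arrays lay at it. GstE7 passed the filter only through its single-exposure arrays, with group means of 49.6 in naive, 346.2 in single-exposure and 54.8 in five-exposure arrays. Its place among the tested and risen genes was thus set by the group where it is high. The counts of this paragraph include GstE7 and draw no support from it. After 5 exposures GstE9 (1.68-fold) and the microsomal enzyme gene Mgstl (1.33-fold, 1.23 to 1.43) were higher and GstE13 (0.849-fold) and se were lower. The gene se (sepia) encodes an omega class enzyme of red eye pigment synthesis and was at 0.650-fold (0.555 to 0.761, limma adjusted p = 0.000835).

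Of 9 genes of glutathione synthesis and recycling, 3 rose after 1 exposure, where 2.57% of all tested probe sets were called higher. They were Gclm, the regulatory subunit of glutamate-cysteine ligase (1.48-fold, 1.27 to 1.72), the thioredoxin reductase gene Trxr1, which in flies also regenerates glutathione (1.28-fold, 1.19 to 1.37), and Men, a source of NADPH (1.95-fold). Gclm was also higher after 5 exposures (1.30-fold, limma adjusted p = 0.0323), and the catalytic subunit gene Gclc was at 0.954-fold and 0.963-fold, not called. In the supply of UDP-sugars none of 8 genes was called after 1 exposure by limma, against 4.42% of all tested probe sets. After 5 exposures UGP, which makes UDP-glucose, fell to 0.893-fold and mmy, which makes UDP-N-acetylglucosamine, to 0.843-fold, while the UDP-glucose dehydrogenase gene sgl was at 0.973-fold.

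The list of sulfotransferases and other enzymes had 7 tested genes. Only Jheh2 rose after 1 exposure (2.199-fold), where 2.57% of all tested probe sets were called higher. It encodes an epoxide hydrolase, which is not a conjugating enzyme. The acetyltransferase gene speck fell to 0.741-fold after 1 exposure, and to 0.752-fold after 5. Among 10 transporters, 2 organic anion transporter genes fell after 1 exposure, where 1.86% of all tested probe sets were called lower. They were Oatp30B (0.795-fold) and Oatp74D (0.823-fold). None of the 10 was called after 5 exposures in limma, against 6.33% of all. The conjugate exporter gene MRP was at 0.994-fold and 1.001-fold. None of 11 tested regulators was called in any comparison by limma, where 12.6% of all tested probe sets were called in at least 1. The transcription factor gene cnc had 262.9 ± 16.2, 263.6 ± 16.2 and 259.6 ± 16.2 and its partner maf-S 370.2 ± 17.9, 392.0 ± 46.7 and 385.0 ± 22.7 in naive, single-exposure and five-exposure arrays. Keap1 was below the filter, at 70.6 ± 4.2, 70.2 ± 2.8 and 72.3 ± 4.3, and the receptor gene Hr96 was at the floor on all 18 arrays.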

How the data were processed

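Biotin-labelled cRNA from 6 µg of total RNA was hybridised to one-colour Affymetrix arrays, per the labels' protocols. The authors deposited 1 intensity per probe set and array for 14010 probe sets (44 controls), on a linear scale and already scaled between arrays. Labels and files do not state how probes were summarised, whether values were centred, or the software. No detection calls were used. Gene symbols came from the platform annotation (1 symbol for 12444 probe sets), updated through a RefSeq gene table.

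A floor was set at the 20th percentile over all arrays (57.8) before taking log2. Leaving out controls and the dimmest 1/3 of probe sets (mean log2 under 6.42) kept 9317. One model of the 3 groups over 18 arrays was fitted with limma 3.58.1 in R 4.3.3 (lmFit, eBayes, 15 residual degrees of freedom), two-sided, with Benjamini-Hochberg adjustment over all probe sets of a comparison. The fit was tested on simulated data. P-values measure the spread between samples that the labels call biological replicates, and the number of arrays limits the precision. The titles number the arrays group after group, so array order and group cannot be told apart. No arrays were duplicates (SD of log2 differences between pairs 0.110 to 0.265).

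Every member is named. Listed pathway genes are named where called, up to 4 per list and comparison, with cnc, Keap1, maf-S, Hr96, sgl and Mgstl in any case, and a few uncalled ones were chosen after their values were seen. Members, lists and tests were chosen with earlier results of these data known. Alternatives were 9 settings and each array left out in turn. Python 3.11.15, numpy 2.4.6, pandas 2.3.3 and matplotlib 3.10.9 made the tables and plots.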

Additional observations from a re-analysis of the deposited data

Results flagged for a closer look

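In the five-exposure group GstZ1 had 1 array far from the others. Replicate 5 was at 166.6, while the other arrays lay between 199.98 and 206.1. It was the 1 such array among 90 groups of 6 looked at (30 genes in 3 groups), and chance alone flags about 1 group in 20. Without it GstZ1 was higher after 5 exposures than after 1, at a log2 fold of 0.17 (limma adjusted p = 0.00460), against 0.12 (adjusted p = 0.153) with it.

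For 6 genes the level differed between 1 and 5 exposures in the direct test, and it was lower after 5 in each case. The log2 folds of 5 exposures over 1 were -1.24 for Ugt37A3, -0.70 for GstD1, -0.35 for Ugt49B1, -0.30 for GstD3, -0.29 for GstD2 and -0.14 for Ugt301D1. GstD1, GstD2 and Ugt37A3 were called above naive after 1 exposure and not called against it after 5, and GstD3 and Ugt49B1 were called below naive after 5 exposures.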

How the results depend on the processing

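Of the 16 calls of a member in a comparison, 11 held under each of the up to 27 alternatives run, and 5 were lost under at least 1: GstD9 after 1 exposure, GstD3, GstS1 and GstT4 after 5, and Ugt301D1 between 5 and 1. No called fold changed direction. The number of members called between 5 exposures and naive was 4, and 1 without a filter on dim probe sets. With 1 array left out it ranged from 1 to 5, against 5 to 6 between 1 exposure and naive and 5 to 7 between 5 exposures and 1. On its dimmer probe set GstO2 had log2 folds of 0.0235, 0.0868 and 0.0633 in the 3 comparisons against -0.04, -0.06 and -0.02 on the chosen one, none called, and the cause was not tested. GstT3 after 5 exposures gained a call under 8 alternatives. The remaining probe set of GstO2 and the other ones of Ugt35B1 and Ugt305A1 were at the floor and gave no fold. With the replicate block 502, 683 and 898 probe sets were called against 412, 590 and 792, and 6, 5 and 5 members against 6, 4 and 6. The labels do not say that equal numbers share a batch. Correlations of deviations between same-numbered arrays ran from -0.18 to 0.40, from -0.24 to 0.45 and from -0.05 to 0.52, and 2, 1 and 3 of 6 arrays correlated best with their own number, so not every pair deviated together. Dim probe sets limit what can be said of the 23 genes below the filter.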
